A study of Mus musculus with 6 samples.

Results

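Myelin is built by oligodendrocytes, and most of its dry mass is lipid. Its signature lipids are galactosylceramide and sulfatide, which carry very long chain and 2-hydroxylated fatty acids that few other brain lipids contain. The 10 genes described here serve that supply. *Ugt8a*, *Gal3st1*, *Fa2h* and *Cers2* act in galactolipid synthesis, *Elovl1* and *Elovl7* elongate fatty acids, *Aspa* releases acetate from N-acetylaspartate, and *Abca2*, *Abca8a* and *Gltp* move lipids. They were chosen by name for these roles, with earlier results of these data known. All 10 were found by their Ensembl identifiers among the 18254 genes of the deposited table.

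The RNA came from the medial prefrontal cortex (mPFC) of male mice aged 10 to 12 weeks on the C57BL/6J background. *Shank3* transgenic (TG) mice overexpress an EGFP-tagged form of *Shank3*, a scaffold protein of excitatory synapses, and were compared with wild-type (WT) littermates that lack the transgene. Each genotype had 3 libraries. A library held the combined mPFC of 2 mice, and the spread between single mice was therefore not measured. The values are normalized read counts, and they summed to between 28363967 and 29447717 per library. *Shank3* itself averaged 17595 ± 1351 in TG and 7779 ± 862 in WT (SD, n = 3 each), a log2 fold change of 1.18 ± 0.10 (SE), with each TG library above each WT library. The 2 libraries numbered 3, TG-3 and WT-3, stood apart from the other 4. Across genes, their deviations from the genotype means correlated by −0.44 to −0.39 with those of the libraries numbered 1 and 2 of the other genotype, and the main counts of the members and of their markers are also given without them. The libraries hold RNA of all cell types of the tissue, and a lower level in them cannot be told apart between fewer oligodendrocytes and less RNA per oligodendrocyte.

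Start-site windows from RefSeq on GRCm38.p6, running from 250 bases before to 50 bases after the start, were at hand for 9 of the 10 genes, with *Fa2h* the exception. The 3 stretches are shown because they belong to the 3 members with the smallest p-values of the genotype comparison, and because they differ in base composition. Each is written 5′ to 3′ on the strand of its gene, and the capitals mark the only match to a motif that was searched.

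Ugt8a: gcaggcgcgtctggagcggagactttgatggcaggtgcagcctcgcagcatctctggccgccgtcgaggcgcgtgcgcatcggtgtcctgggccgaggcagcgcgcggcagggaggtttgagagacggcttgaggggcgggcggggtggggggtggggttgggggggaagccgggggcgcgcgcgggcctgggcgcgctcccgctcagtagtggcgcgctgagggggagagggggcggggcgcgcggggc
Aspa: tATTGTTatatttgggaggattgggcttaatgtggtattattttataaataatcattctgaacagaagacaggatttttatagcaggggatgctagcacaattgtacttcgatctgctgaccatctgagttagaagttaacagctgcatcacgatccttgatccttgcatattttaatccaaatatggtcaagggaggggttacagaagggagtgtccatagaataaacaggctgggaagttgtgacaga
Abca8a: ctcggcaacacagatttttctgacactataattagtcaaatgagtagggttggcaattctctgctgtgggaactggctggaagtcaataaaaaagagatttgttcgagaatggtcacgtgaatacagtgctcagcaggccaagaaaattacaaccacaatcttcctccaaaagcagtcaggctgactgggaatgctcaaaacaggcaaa

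The *Ugt8a* stretch lies at chr3:125938653-125938902, the *Aspa* stretch at chr11:73324638-73324887 and the *Abca8a* stretch at chr11:110095979-110096187, all on the minus strand. The first and the last lie before the annotated gene, whereas the *Aspa* stretch lies in an intron of longer *Aspa* transcripts. The windows of *Aspa* and *Abca8a* had the lowest GC content of the 9 genes, 39% and 44.3%, against 78.3% for *Ugt8a* and a median of 52.7% over all 32851 windows. A GC content at or under that of *Aspa* was found in 8.92% of all windows, and at or under that of *Abca8a* in 21.1%. The other windows of the members had GC contents between 54.3% and 79%. The dinucleotide CG occurred 2 times in the window of *Aspa*, 4 times in that of *Abca8a* and 40 times in that of *Ugt8a*. Members with a lower level in TG thus included genes with GC-poor and with GC-rich start sites.

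The windows were searched on both strands for ACAAAG and AACAAT, which SOX factors such as the oligodendrocyte factor SOX10 can bind, and for CTGGCAC and CTGGTAC, words of the kind bound by the myelin regulatory factor MYRF. Of the 13 windows of the 9 genes, 1 held a SOX word, AACAAT on the opposite strand at chr11:73324881-73324886, upstream of the RefSeq start site of *Aspa* and inside the annotated gene, whereas 27% of all windows held either SOX word. A MYRF word occurred in 0 of the 13 windows and in 7.1% of all windows. A match or its absence in this length of sequence is a description of the letters and says nothing on binding.

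All 10 genes had a lower mean in TG than in WT, and none passed the test across all genes. The median log2 fold change of the 10 was −0.23, beside −0.00 over the 16714 genes tested, of which 8595 were lower in TG. With limma on log2(normalized count + 1) and Benjamini-Hochberg adjustment over all tested genes, 0 of the 10 had an adjusted p under 0.05, and 0 of all tested genes did (0%). *Shank3* itself, with the smallest p of all tested genes, had an adjusted p of 0.0643 in this fit, so the transgene missed the threshold too. At an unadjusted p under 0.05, 5 of the 10 were lower, *Ugt8a*, *Fa2h*, *Elovl7*, *Aspa* and *Abca8a*, against 1.08% of all tested genes. All 3 TG values lay under all 3 WT values for 5 of the 10, *Ugt8a*, *Fa2h*, *Cers2*, *Aspa* and *Abca8a*, against 3.12% of all tested genes. By matching library number, the median log2 difference of the 10 genes was −0.29, −0.11 and −0.40 for numbers 1, 2 and 3. Without the libraries numbered 3, the unadjusted count was 3 of 10 (*Ugt8a*, *Aspa* and *Abca8a*) against 1.25% of the genes tested. With 2 libraries a genotype, 7 of 10 were lower in TG without overlap, with *Elovl7* and *Gltp* added, against 13.3%. *Elovl1* was separated in the other direction, as were 2124 of the 16634 genes tested, and was higher in TG by 0.20 on the log2 scale. *Ugt8a*, *Aspa* and *Abca8a* also made up the unadjusted count without TG-1, without TG-2 and without WT-3.

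The libraries that share a number deviated together from their genotype means, with correlations of 0.30, 0.33 and 0.62 for numbers 1, 2 and 3. Between TG-2 and WT-1 it was 0.23 and between TG-1 and WT-2 0.27, so the likeness was clear for number 3 alone. With the number as a block, 7 of the 10 genes were lower at an unadjusted p under 0.05, against 2.66% of all tested genes. The block added *Cers2* and *Gltp*, and 0 of the 10 passed the Benjamini-Hochberg adjustment (lowest adjusted p = 0.35, *Abca8a*). The study scaled its p-values to an empirical null. When z-scores here were divided by their own width over all genes, 0.731, 2 of the 10 passed, *Aspa* and *Abca8a*, each with an adjusted p of 0.0479 in limma, against 0.0778% of all tested genes called lower that way. The adjusted p of *Ugt8a* was then 0.0623.

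**Figure D1:**
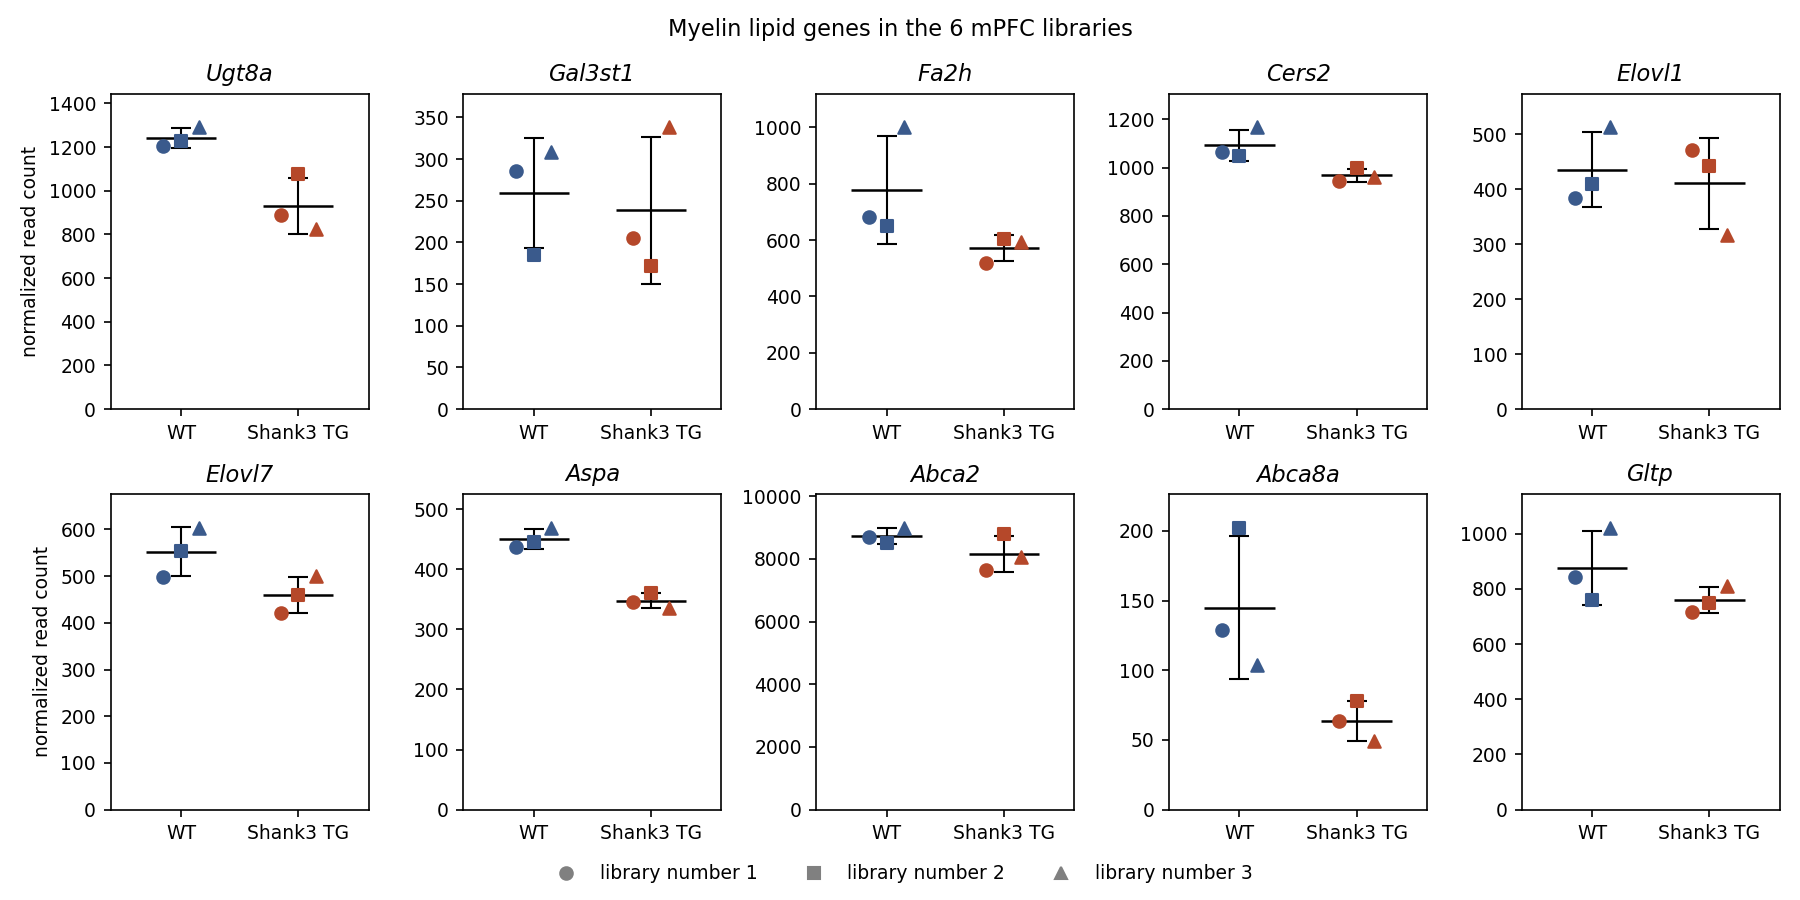
Normalized read counts (vertical axes, starting at 0) of the 10 myelin lipid genes in the 3 WT (blue) and 3 *Shank3* TG (red) libraries. The symbol gives the library number, and bars give the mean and SD. The TG values of *Ugt8a*, *Fa2h*, *Cers2*, *Aspa* and *Abca8a* all lie under the WT values, and those of the other 5 genes overlap.

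*Ugt8a* (ENSMUSG00000032854, chr3:125865271-125938619, minus strand, GRCm38) encodes the galactosyltransferase that makes galactosylceramide from ceramide. Its normalized counts were 888 in TG-1, 1076 in TG-2 and 827 in TG-3, against 1203 in WT-1, 1226 in WT-2 and 1290.3 in WT-3. The WT libraries lay close together, and the highest TG library was below the lowest of them. The means were 930.1 ± 129.8 in TG and 1240.0 ± 45.1 in WT (SD, n = 3), 25.0% lower in TG. The log2 fold change was −0.42 ± 0.11 (SE; exact permutation p = 0.1, two-sided as throughout), and the adjusted p in limma was 1.00, as it was for each of the other 9 genes.

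*Gal3st1* (ENSMUSG00000049721, chr11:3983636-3999326, plus strand) encodes the sulfotransferase that turns galactosylceramide into sulfatide, the next step of the same pathway. Its values were 206, 171 and 338 in TG-1, TG-2 and TG-3 and 285, 185 and 308 in WT-1, WT-2 and WT-3. The groups overlapped, with the highest value of each genotype in the library numbered 3 and the lowest in the library numbered 2. On the log2 scale the fold change was −0.15 ± 0.28 (exact permutation p = 0.9), and the difference was positive in the pair numbered 3 (0.13). Without TG-2 the fold change turned to 0.06.

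*Fa2h* (ENSMUSG00000033579, chr8:111345135-111393824, minus strand) encodes the fatty acid 2-hydroxylase that supplies the hydroxylated chains of myelin galactolipids. TG-1, TG-2 and TG-3 had 519, 605 and 592 normalized counts, and WT-1, WT-2 and WT-3 had 682, 651 and 999.9. The groups did not overlap, but WT-2 exceeded TG-2 by little, and WT-3 was far above the other WT libraries. With all libraries the log2 fold change was −0.42 ± 0.17 (exact permutation p = 0.1), and without WT-3 it was −0.22.

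*Cers2* (ENSMUSG00000015714, chr3:95314791-95323599, plus strand) encodes the ceramide synthase that prefers very long chain acyl groups. TG-1, TG-2 and TG-3 measured 944, 997 and 962.5, and WT-1, WT-2 and WT-3 measured 1065, 1049 and 1167. The difference was small, 11.4% lower in TG, and without overlap because both groups were tight (coefficients of variation of 2.78% and 5.87%). Its log2 fold change was −0.17 ± 0.08 (exact permutation p = 0.1).

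Both elongases add carbons to fatty acyl chains, *Elovl1* (ENSMUSG00000006390, chr4:118428093-118432953, plus strand) those of the very long saturated and monounsaturated kind. *Elovl1* measured 472, 442.5 and 317 in TG-1, TG-2 and TG-3 and 384, 409.7 and 513 in WT-1, WT-2 and WT-3. TG was higher in the pairs numbered 1 and 2 and lower in the pair numbered 3, so that the log2 fold change of −0.09 ± 0.18 (exact permutation p = 0.7) rested on the libraries numbered 3. It was 0.08 without TG-3 and 0.03 without WT-3. *Elovl7* (ENSMUSG00000021696, chr13:108214404-108285683, plus strand) measured 421, 459 and 499.2 in TG and 498.1, 554 and 603 in WT. TG-3 and WT-1 had almost the same value, which alone made the groups overlap, and within each number TG was lower by nearly the same amount (log2 differences of −0.24, −0.27 and −0.27). Over all libraries the log2 fold change of *Elovl7* was −0.26 ± 0.11 (exact permutation p = 0.2). The difference between the fold changes of the 2 elongases was not tested.

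*Aspa* (ENSMUSG00000020774, chr11:73304992-73329596, minus strand) encodes aspartoacylase, which splits the neuronal metabolite N-acetylaspartate into aspartate and acetate for lipid synthesis in oligodendrocytes. Its values were 345, 361 and 336 in TG-1, TG-2 and TG-3 and 437, 446 and 469 in WT-1, WT-2 and WT-3. The 2 groups were separated by a gap wider than the range of either, with a coefficient of variation of 3.62% in both. *Aspa* averaged 347 ± 12.6 in TG and 451 ± 16.3 in WT (SD, n = 3), 22.9% lower in TG. Its log2 fold change of −0.37 ± 0.09 (exact permutation p = 0.1) ranked first of the 10 and at 18 of the 16714 tested genes by the unadjusted p of limma. Of the 10 profiles over the 6 libraries, that of *Aspa* was the closest to their mean profile (root mean square difference of 0.04 on the log2 scale).

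*Abca8a* (ENSMUSG00000041828, chr11:110025634-110095978, minus strand), an ATP-binding cassette lipid transporter of subfamily A, had the lowest level and the largest fold change of the 10. It measured 63.9, 77.9 and 49.2 in TG-1, TG-2 and TG-3 and 129, 202 and 103 in WT-1, WT-2 and WT-3. The WT libraries spread widely, yet the lowest of them exceeded the highest TG library. The means were 63.7 ± 14.4 in TG and 145 ± 51.2 in WT (SD, n = 3), a ratio of 0.44. The log2 fold change was −1.14 ± 0.28 (exact permutation p = 0.1), at percentile 0.425 of the fold changes of all tested genes, and it ranged from −1.35 to −0.87 when each library was left out in turn.

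*Abca2* (ENSMUSG00000026944, chr2:25428703-25448540, plus strand), another transporter of that subfamily found in oligodendrocytes and in other cells, had the highest level of the 10. Its values were 7652, 8787 and 8057 in TG and 8713, 8504 and 8993 in WT, in order of number. TG-2 exceeded WT-1 and WT-2, and the log2 fold change was −0.10 ± 0.08 (exact permutation p = 0.3). It was −0.05 without TG-1 and −0.15 without TG-2. *Gltp* (ENSMUSG00000011884, chr5:114669398-114690984, minus strand) encodes a cytosolic protein that transfers glycolipids between membranes. It measured 717, 749 and 812 in TG and 844, 759 and 1021 in WT, so that WT-2 lay within the TG range. Its log2 fold change was −0.19 ± 0.12 (exact permutation p = 0.2), and it was −0.08 without WT-3 and −0.29 without WT-2.

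With 3 libraries against 3, the permutation test of a single gene cannot give an exact p below 0.1, the value reached by the 5 genes without overlap. Where a member shares sequence with another gene, its reads could in part be assigned elsewhere. Of the 31-base words of the *Abca8a* exons, 2.89% also occur in its neighbour *Abca8b*. Of those of *Cers2*, 3.47% occur in other genes, most of them (2.28%) in *6330562C20Rik*. The words were sought on both strands of the other transcripts, although the libraries were stranded. *Ugt8a*, *Gal3st1*, *Fa2h* and *Abca2* shared none, and the other 4 members less than 0.9%.

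Levels were compared between the genes as normalized counts per kilobase of merged exon sequence. In WT, *Abca2* was highest with 1047 ± 29.3 per kilobase, followed by *Gltp* with 496 ± 75.8, *Cers2* with 297 ± 17.4, *Ugt8a* with 273 ± 9.93 and *Fa2h* with 259 ± 64.2 (SD, n = 3). *Elovl1* had 160 ± 25.0, *Elovl7* 138 ± 13.1, *Gal3st1* 127 ± 32.2, *Aspa* 75.7 ± 2.74 and *Abca8a* 23.1 ± 8.16. *Cers2*, *Ugt8a* and *Fa2h* lay close together, and *Fa2h* differed from neither of the others beyond its spread. *Elovl7* differed from *Gal3st1* by less than the SD of either, and from *Elovl1* by less than the SD of *Elovl1*. *Elovl1* and *Gal3st1* differed by slightly more than the SD of either. The order of the means was the same in TG except that *Gal3st1* (117 ± 43.2) and *Elovl7* (115 ± 9.70) changed places within their spread. The genes with the highest and the lowest level in this scale were thus both lipid transporters of subfamily A.

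**Figure D2:**
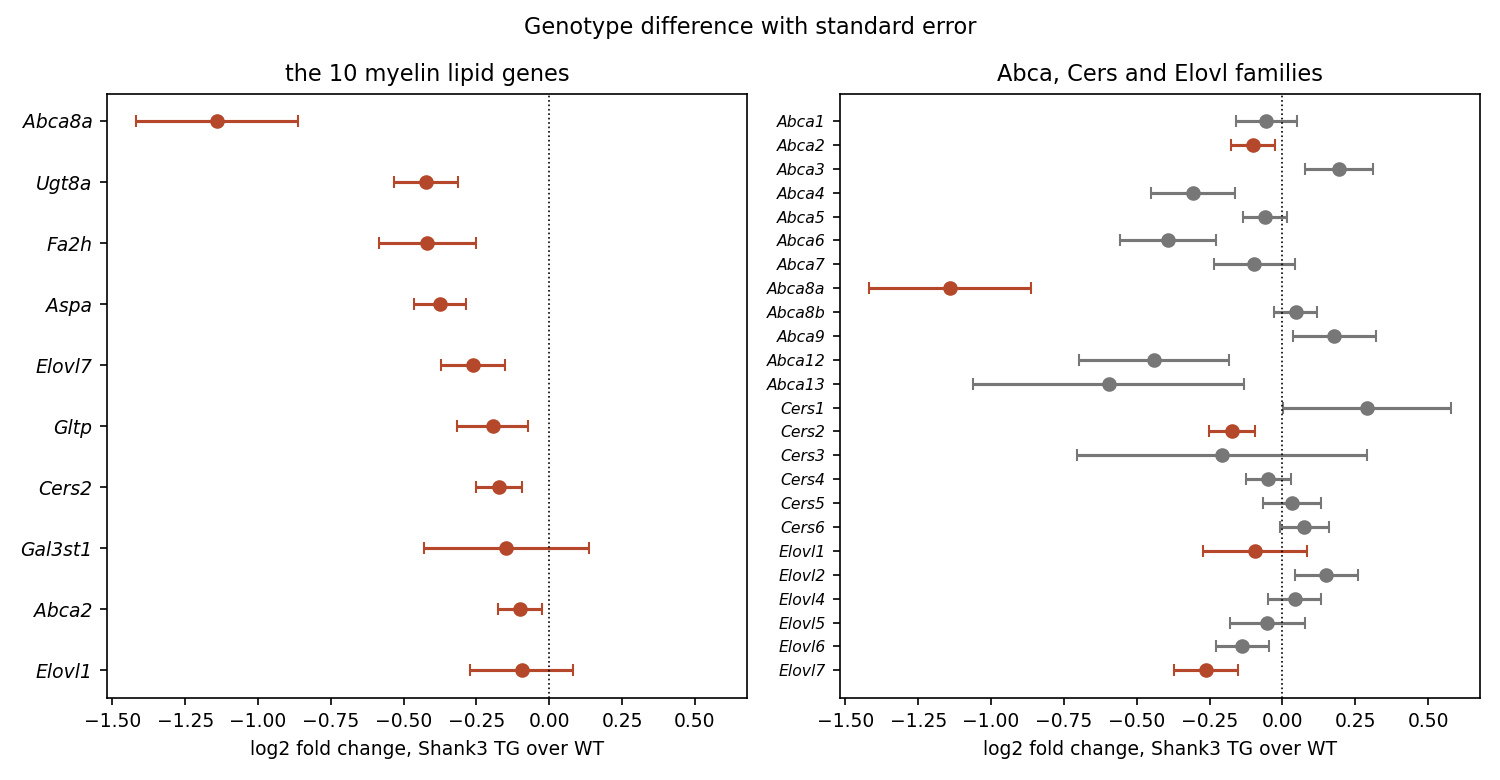
Log2 fold change of *Shank3* TG over WT (horizontal axes) with its standard error. The left panel shows the 10 myelin lipid genes, all left of 0, and the right panel all tested members of the Abca, Cers and Elovl families, with the myelin lipid genes in red and the others in grey. *Abca8a* lies farthest from 0, and its family members scatter on both sides.

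The other measured genes of the Cers, Elovl and Abca families were examined next. Of the other ceramide synthases, *Cers4*, *Cers5* and *Cers6* had log2 fold changes of −0.05, 0.03 and 0.08, and *Cers1*, the neuronal enzyme, and the scarce *Cers3* had 0.29 and −0.21 with standard errors of 0.29 and 0.50. Of the other elongases, *Elovl2*, *Elovl4*, *Elovl5* and *Elovl6* had 0.15, 0.04, −0.05 and −0.14. None of these 9 genes had an unadjusted p under 0.05. *Elovl3* was not analysed here.

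*Abca8a* lies on chromosome 11 in a cluster of related genes, in the order *Abca8b*, *Abca8a*, *Abca9*, *Abca6* and *Abca5*, within chr11:109932190-110337716. *Abca8b*, with values of 987, 988 and 955 in TG and 916, 976 and 946 in WT, had a log2 fold change of 0.05 ± 0.07. *Abca9* had 0.18 ± 0.14 and *Abca5* −0.06 ± 0.07. *Abca6* measured 55.4, 57.6 and 70.0 in TG and 80.6, 79.7 and 79.5 in WT, without overlap, and its log2 fold change was −0.39 ± 0.16 (exact permutation p = 0.1, adjusted p = 1.00 in limma). Within the cluster, *Abca8a* and *Abca6* had the lowest counts and were lower at an unadjusted p under 0.05, a call that *Abca6* lost with the library number as a block. Outside it, *Abca1*, *Abca3*, *Abca4* and *Abca7* had log2 fold changes of −0.06, 0.20, −0.31 and −0.10, and *Abca12* and *Abca13*, with mean counts under 50, had −0.44 and −0.60, all with an unadjusted p over 0.05.

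The other genes of the lipid pathways had a median close to that of all genes. Of 107 genes in 8 lists, 104 were tested, 58 lower and 46 higher in TG, with a median log2 fold change of −0.02. *Abca6* was the only gene lower at an unadjusted p under 0.05, beside 1.08% of all tested genes lower and 0.933% higher, and *Slc13a3*, a carrier of dicarboxylates and N-acetylaspartate, the only gene higher (0.35 ± 0.13, exact permutation p = 0.1). The list medians were 0.01 for sphingoid base and ceramide synthesis (16 genes), 0.03 for sphingomyelin and ganglioside synthesis (11 genes) and 0.02 for lysosomal sphingolipid breakdown (12 genes). They were −0.01 for fatty acid synthesis, elongation and desaturation (21 genes), −0.03 for N-acetylaspartate and acetate use (10 genes) and −0.02 for peroxisomal breakdown of very long chain fatty acids (11 genes). Ether lipid synthesis, the source of myelin plasmalogens, had −0.06 (7 genes), and the other ABCA transporters and lipid carriers −0.05 (16 genes). The members' own medians were −0.30 for galactolipid synthesis (4 genes), −0.18 for elongation (2 genes) and −0.19 for transport (3 genes).

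**Figure D3:**
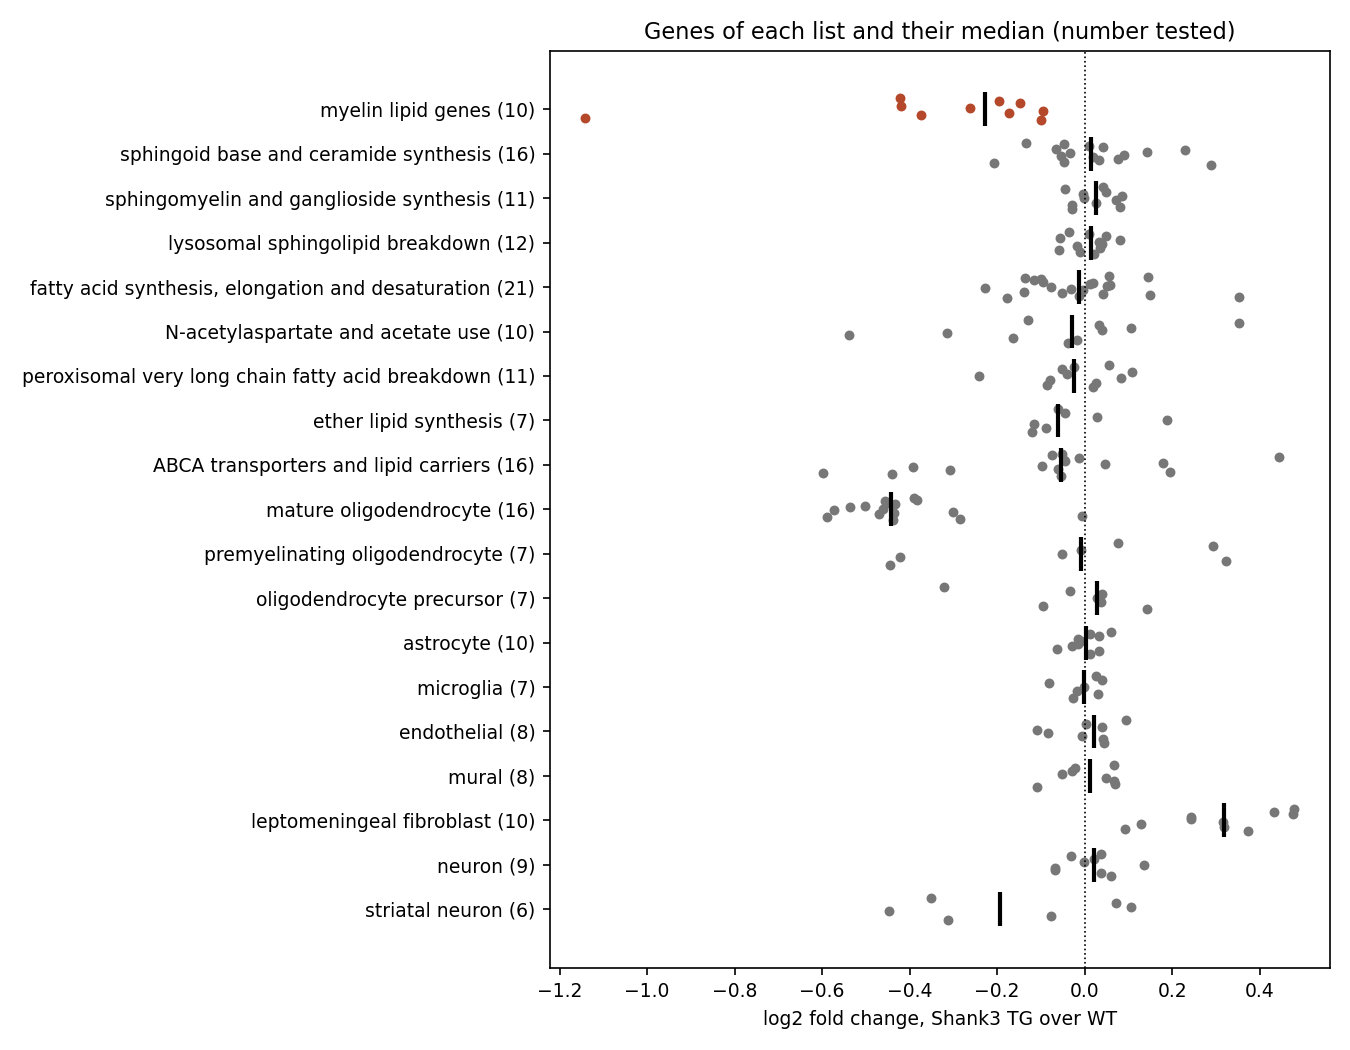
Log2 fold change of *Shank3* TG over WT (horizontal axis) for each gene (points) of the myelin lipid genes, 8 lipid pathway lists and 10 cell type marker lists, with the list median as a black bar and the number of genes tested in brackets. The myelin lipid genes, with a median of −0.23, and the mature oligodendrocyte markers, with −0.44, lie to the left of 0, and the leptomeningeal fibroblast markers, with 0.32, to the right.

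Since bulk RNA mixes cell types, marker genes were measured beside the members. Of 16 markers of mature oligodendrocytes, 13 were lower at an unadjusted p under 0.05 (1.08% of all tested genes) and 12 were lower without overlap (3.12%), with a median log2 fold change of −0.44. Without the libraries numbered 3 the counts were 13 (1.25% of all genes) and 14 (13.3%), with a median of −0.36. Their summed normalized counts were between 84586 and 109333 in TG and between 125801 and 127661 in WT, and the most abundant, the myelin protein gene *Mbp*, had a log2 fold change of −0.46. Markers of oligodendrocyte precursors had a median of 0.03, with *Pdgfra* at −0.03 and *Pcdh15* at 0.04. *Vcan* at −0.32, named after its values were seen, was the only precursor marker lower at an unadjusted p under 0.05. Premyelinating markers had a median of −0.01, with 4 genes lower and 3 higher. The lower ones included *Gpr17* at −0.05, *Bcas1* at −0.45 and *Enpp6* at −0.42, and the higher ones *Bmp4* at 0.32 and *Neu4* at 0.29. Of these, *Enpp6*, *Bmp4* and *Neu4* were named after their values were seen. The medians were 0.00 for astrocytes, −0.00 for microglia, 0.02 for endothelial cells, 0.01 for mural cells and 0.02 for neurons. Striatal neuron markers had −0.19. No measured marker gene was at 0 in all 6 libraries.

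Markers of leptomeningeal fibroblasts differed in the other direction, with 10 of 10 higher in TG, a median of 0.32 and 5 at an unadjusted p under 0.05 (0.933% of all tested genes). Without the libraries numbered 3, 9 of 10 were higher, 7 of them at an unadjusted p under 0.05 (1.56% of all genes), again with a median of 0.32. Their sums were between 5085 and 6023 in TG and between 4341 and 5033 in WT, with *Igf2* at 0.24 and *Col1a2* at 0.09. The part of this difference in the values of the members was not tested.

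Each member was next expressed as a log2 ratio to the mean of the 16 mature oligodendrocyte markers in the same library. That mean was lower in TG by 0.57, 0.16 and 0.52 for library numbers 1, 2 and 3 on the log2 scale, a difference of −0.42 in all. Relative to it, 8 of the 10 members were higher in TG, *Fa2h* by less than 0.01, with a median difference of 0.19 in the log2 ratio. Because the marker mean itself was lower in TG, a gene with equal levels in both genotypes has a higher ratio in TG, and over all tested genes the median difference was 0.42, with 96.3% of genes higher. The median of the members was 0.12 without the libraries numbered 3 and 0.10 without TG-3, and it was 0.13 and 6 members were higher without TG-1. *Ugt8a*, *Fa2h* and *Aspa* had differences of −0.00, 0.00 and 0.04, each smaller than the SD of either genotype. These values moved with single libraries, to 0.13 for *Fa2h* without WT-3, 0.09 for *Ugt8a* without TG-3 and −0.04 for *Aspa* without TG-1. For *Ugt8a* the log2 ratios were −0.67, −0.72 and −0.98 in TG and −0.80, −0.70 and −0.86 in WT, and the WT values lay inside the TG range.

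*Cers2* and *Abca2* had higher ratios in TG, by less than the median of all genes. The log2 ratio of *Cers2* was −0.58, −0.83 and −0.76 in TG and −0.98, −0.92 and −1.003 in WT, a difference of 0.24. That of *Abca2* was 2.44, 2.31 and 2.30 in TG and 2.05, 2.10 and 1.94 in WT, a difference of 0.32. Neither gene's groups overlapped, as for 54.4% of all tested genes, which were higher in this ratio without overlap, and the exact two-sided permutation p was 0.1 for each, the smallest that 3 against 3 allows. *Gltp* (0.22), *Elovl7* (0.16), *Gal3st1* (0.27) and *Elovl1* (0.32) were also higher in the ratio, with overlapping groups and exact p-values of 0.2, 0.2, 0.4 and 0.3. Over the fits that omit a single library, the difference of *Gal3st1* ranged from 0.004 (without TG-3) to 0.55 (without TG-2) and that of *Elovl1* from 0.12 (without TG-1) to 0.51 (without TG-3). That of *Elovl7* was 0.10 without WT-1.

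*Abca8a* had the largest difference, and in the other direction. Its log2 ratio was −4.45, −4.49 and −5.02 in TG and −4.02, −3.29 and −4.49 in WT, a difference of −0.72. WT-3 and TG-2 had nearly the same ratio and TG-1 was above WT-3, so the groups overlapped (exact permutation p = 0.2). Without WT-2 the difference was −0.40.

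**Figure D4:**
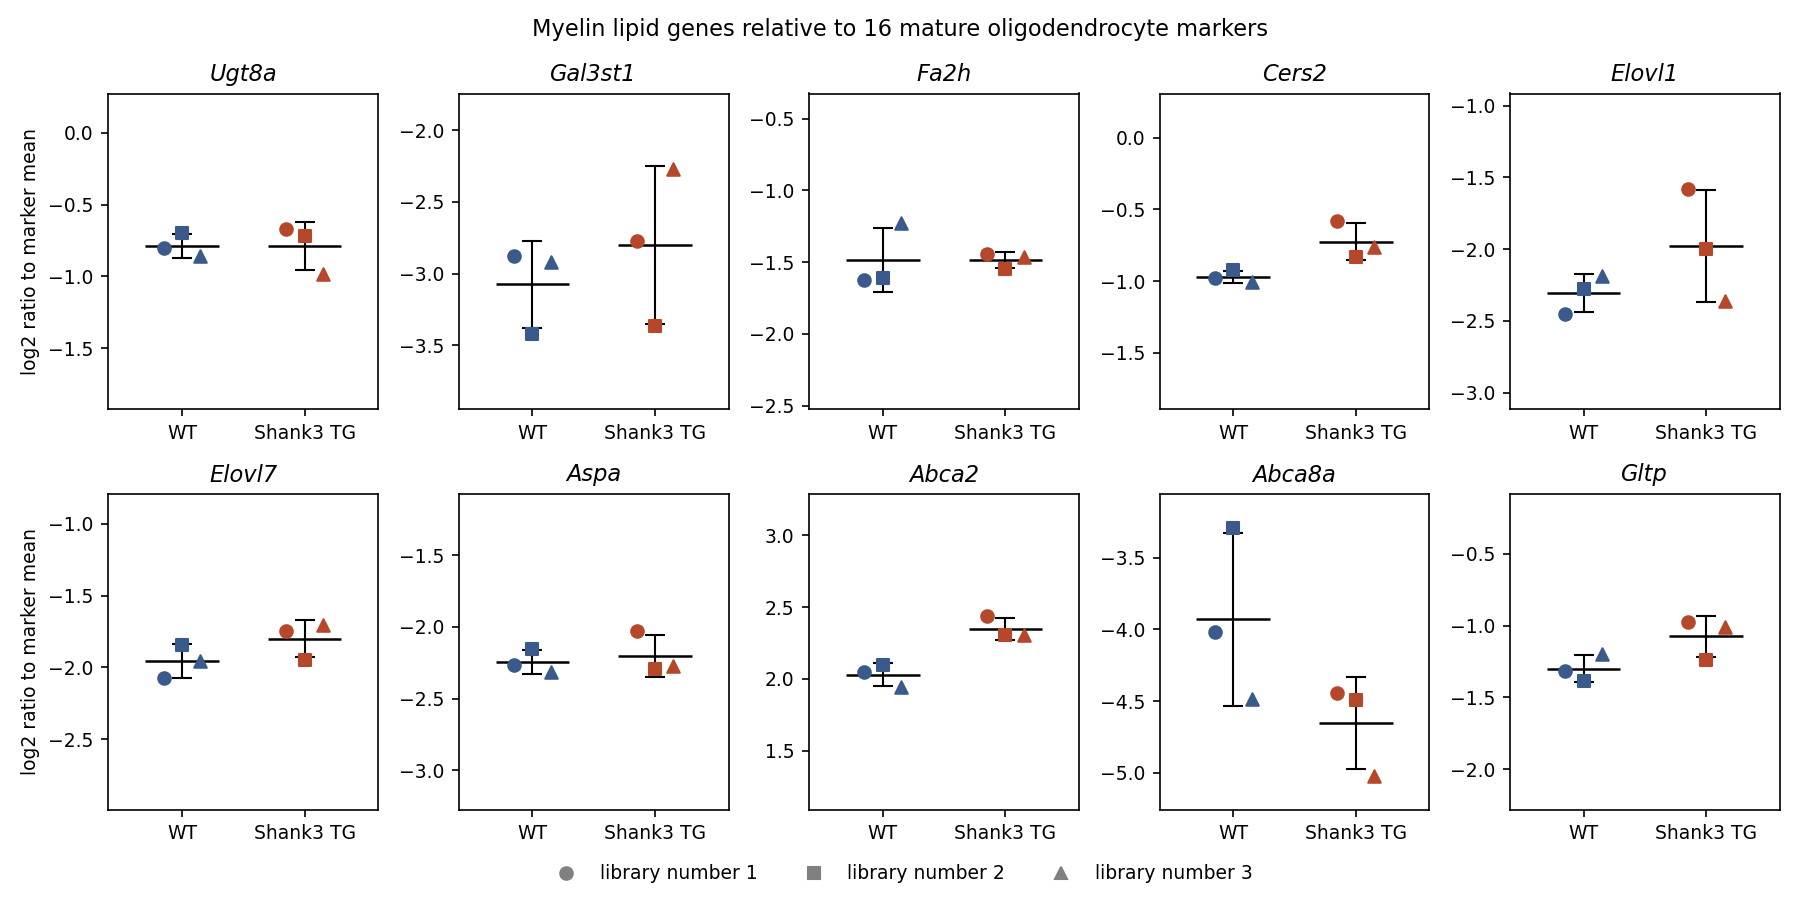
Log2 ratio (vertical axes, each spanning the same range) of the 10 myelin lipid genes to the mean of 16 mature oligodendrocyte markers in the same library, for the 3 WT (blue) and 3 *Shank3* TG (red) libraries, with mean and SD. *Cers2* and *Abca2* are higher in TG without overlap, as are 54.4% of all tested genes (median difference 0.42), *Ugt8a*, *Fa2h* and *Aspa* have nearly equal means, and *Abca8a* is lower in TG with overlapping groups.

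The members' profiles over the 6 libraries were centred and averaged, which gave −0.21, −0.11 and −0.18 in TG-1, TG-2 and TG-3 and 0.11, 0.11 and 0.28 in WT-1, WT-2 and WT-3 on the log2 scale. Of the members, *Abca8a* (root mean square difference of 0.55), *Gal3st1* (0.38) and *Elovl1* (0.23) were farthest from this average. The 5 other genes closest to it were *Evi2a* (0.05), *Vcan* (0.06), *Grk4* (0.06), *Tmprss7* (0.06) and *Zfp41* (0.06), with log2 fold changes of −0.42, −0.32, −0.29, −0.25 and −0.28. These are likenesses over 6 libraries that all share the contrast between the genotypes, and they are given as a description.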

How the data were processed

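RNA of the mPFC of 3 TG and 3 WT pools was sequenced from stranded mRNA libraries. The authors estimated transcript abundance with Salmon 0.9.1 on GRCm38 with GC bias correction, imported it at the gene level and divided it by size factors in DESeq2 1.19.11 (R 3.6.0, versions from the submitters' processing notes). The deposited values are this signal, normalized read counts of 18254 genes, which are not whole reads, so that no counting interval was computed and count models were not used. Samples were grouped by the labels.

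Names and positions came from GENCODE M21, in which 18231 of the 18254 genes were found. Genes with a mean of at least 5 were tested, 16714 in all, with limma 3.58.1 in R 4.3.3 on log2(value + 1), which understates changes of scarce genes. The fit had the genotype alone, eBayes with a trend, two-sided tests, Benjamini-Hochberg adjustment and a threshold of 0.05. It was tested on simulated data. Ratios to markers were compared by exact permutation. Deviations from the genotype means correlated across genes by 0.30, 0.33 and 0.62 between libraries numbered 1, 2 and 3, and at most 0.27 between others, so the block was used as an alternative. The labels do not say what the numbers mark. The paper speaks of 3 pairs of RNA samples, 3 WT and 3 TG, without saying what joined a pair.

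The members, the pathway and marker lists (22 lists with the members' own) and the tests were chosen with earlier results of these data known. Named genes were the 10 members, *Shank3*, pathway genes with an unadjusted p under 0.05 (at most 4 a list), all Elovl, Cers and Abca genes with a mean of at least 5, the 2 most abundant markers of a list, and the 5 nearest profiles. A marker that the rule covers is not reported here. As alternatives, the pseudocount was set to 0.1 or 5, and the filter was left out or raised to 50. Others were upper quartile and quantile scaling, eBayes without trend or with the robust option, the block, the empirical null, the libraries numbered 1 and 2 alone, and each library left out.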

Additional observations from a re-analysis of the deposited data

How the results depend on the processing

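The number of all tested genes with an adjusted p under 0.05, 0 in limma, was 1 with the robust option, 1 with the replicate block, 26 with the empirical null and 1 with the libraries numbered 1 and 2 alone, and 0 to 1 when each library was left out (1 without WT-3). At an unadjusted p under 0.05, 180 genes were lower and 156 higher. Of the members, 2 were called with the empirical null and 0 otherwise. The 5 members lower at an unadjusted p under 0.05 became 3 without a trend and 3 with the libraries numbered 1 and 2 alone, and 3 to 5 when each library was left out. The block gave 7. The 1 pathway gene lower at an unadjusted p under 0.05 became 0 with a mean of at least 50, 5 with the replicate block, which did not include *Abca6*, and 5 with the empirical null, and 0 to 1 when each library was left out (0 without TG-1 and 0 without WT-2). The cause was not tested.

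The fold change of *Elovl1* turned to 0.20 with the libraries numbered 1 and 2 alone, and ranged from −0.21 to 0.081 when each library was left out, with 0.081 without TG-3 and 0.03 without WT-3. *Gal3st1* ranged from −0.43 to 0.060 when each library was left out, with 0.060 without TG-2. The other 8 members kept a fold change under 0 under all 17 alternatives. Those in the filter, the eBayes options, the block and the empirical null leave a fold change as it is, so their direction was fixed. Of the 170 comparisons of a single member with an alternative, 164 kept direction and call, 4 reversed and 2 gained a call. No member was called in the main fit, so a kept call was the absence of one. The adjusted p of *Aspa* and of *Abca8a* ranged from 0.0479 to 1.00. The replicate block changed no adjusted call of a member. The median of all genes stayed between −0.01 and 0.00 under every scaling. With 3 pools a genotype, a difference of the size seen for *Abca2* was near the spread between libraries, and depth could not be judged because reads were not recovered.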

Other observations

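Among the 104 pathway genes, the fit with the library number as a block had 5 genes lower at an unadjusted p under 0.05, beside 2.66% of all tested genes, and 3 genes higher, beside 389 of the 16714 tested. None of these had an adjusted p under 0.05. Among the 3 higher genes were *Slc13a3* (log2 fold change 0.35) and *Abca3* (0.20). The 5 lower genes were named after their values had been seen. They were *Folh1* (log2 fold change −0.54), an enzyme that splits N-acetylaspartylglutamate, *Acbd5* (−0.24), a peroxisomal membrane protein that binds very long chain acyl-CoA, *Fads6* (−0.23), *Acaca* (−0.18), which makes malonyl-CoA, and *Abca4* (−0.31). *Folh1* measured 84.4, 113 and 53.7 in TG-1, TG-2 and TG-3 and 113, 154 and 91.3 in WT-1, WT-2 and WT-3, lower in TG in 3 of 3 pairs although the groups overlapped.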
